A study of Mus musculus with 12 samples.

Results

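The response of fibroblasts to gel stiffness where the gel relaxes slowly was described from 6 of the 12 RNA samples of the series, 3 on 20-kPa and 3 on 2-kPa viscoelastic gels, chosen by their labels alone. The cells were primary ear fibroblasts of 1-month-old mice, grown with serum, used at passage 2 and kept on the gels for 48 h after 500000 cells were seeded. The study drew cells from male and female C57BL/6 and from Tau-EGFP reporter mice. Which of them gave the RNA, and whether the 3 samples of a group came from separate animals, is not given in the sources used here, so the p-values measure the spread between these samples. All gels were alginate that carried an RGD adhesion peptide. The viscoelastic gels were held together by calcium ions, whose bonds slip and reform under load, and the 20-kPa gels were made with more calcium sulfate than the 2-kPa gels. Stiffness and the calcium in the gel therefore cannot be told apart. The other 6 samples, on elastic gels of 2 kPa and 20 kPa with covalent crosslinks, shared the estimate of the spread between replicates and served for comparison.

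Cells sense stiffness by pulling on the matrix through integrins and the actin network. On a stiff elastic surface tension builds on talin and vinculin at focal adhesions, contractile genes such as alpha-smooth muscle actin are switched on through SRF and its co-activator MRTF, and the co-activator YAP enters the nucleus and drives TEAD targets such as Ccn1, Ccn2 and Ankrd1. A gel that relaxes dissipates part of that tension over time. The comparison asks which genes follow stiffness on such a gel.

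The 6 libraries held 39650905 to 42789950 counts. All 12 fibroblast markers exceeded 1 CPM (counts scaled to a common library size), with summed levels of 25080.0 to 28940.0 CPM on 2-kPa gels and 27700.0 to 30270.0 CPM on 20-kPa gels. Cartilage genes were also abundant: 8 of 9 chondrocyte markers, Col2a1, Acan, Comp and Sox9 among them, exceeded 1 CPM, with sums of 5564 to 7194 CPM on 2-kPa gels and 5878 to 7439 CPM on 20-kPa gels. Mural and smooth muscle markers summed to 337.5 to 349 CPM on 2-kPa gels and 298.4 to 356.4 CPM on 20-kPa gels. The part of such cells in the contractile genes was not tested. Markers of keratinocytes summed to 20.1 to 23.8 CPM on 2-kPa gels and 22.1 to 24.2 CPM on 20-kPa gels, and those of endothelial and immune cells to less. Markers of Schwann cells and melanocytes summed to 66.7 to 77.5 CPM on 2-kPa gels and 87.3 to 109 CPM on 20-kPa gels, with Tyr and Mlana at 0 counts, and S100b made up most of that sum. Xist lay between 549.8 and 838 CPM, and 4 Y-linked genes together had 0 to 3 counts a library. In bulk RNA, fewer cells of a type and less RNA per cell cannot be told apart.

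Few genes passed edgeR's threshold for a response to stiffness on viscoelastic gels, and most of their changes were small. Of 14542 genes tested with edgeR's quasi-likelihood test, 331 (2.28%) had an adjusted p under 0.05. Of these, 230 (1.58% of those tested) were higher on 20-kPa gels and 101 (0.695%) were lower. These shares are the background for the counts of calls in the lists below. Without adjustment, 2768 of the 14542 genes had an edgeR p under 0.05, the background for unadjusted counts in the lists. DESeq2 called 757 genes and limma voom with sample weights 1022, so a gene that edgeR did not call may still respond. The median size of a called change was 0.35 on the log2 scale, and 250 of the called genes (75.5%) changed by less than 0.5. Changes of 1 or more were called for 11 genes that rose and 6 that fell. All 331 called genes had groups that did not overlap, which held for 22.3% of the genes tested. Of the called genes, 9 kept an adjusted p under 0.05 whichever of the 6 viscoelastic libraries was left out, 5 higher and 4 lower on 20-kPa gels, and 59 lost it every time. No called gene changed sign in these fits. Groups that do not overlap keep their order when 1 library is left out, so the kept sign is no separate evidence.

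The 5 genes that rose and kept their call encode a water channel, a protease and surface or secreted proteins. Aqp1, the water channel aquaporin-1, was at 47.2, 56.5 and 50.6 CPM on 2-kPa gels and at 85.2, 107 and 85.3 CPM on 20-kPa gels. It rose by 0.85 ± 0.0918 (SE) on the log2 scale (adjusted p = 0.00211), and the lowest 20-kPa library was well above the highest 2-kPa library. Lrrn3, a transmembrane protein with leucine-rich repeats, went from 14.0, 17.5 and 15.6 CPM to 27.5, 37.4 and 27.8 CPM, a rise of 0.98 ± 0.114 (adjusted p = 0.00257). Crispld1, a secreted protein, went from 23.5, 27.9 and 25.2 CPM to 42.9, 54.3 and 43.1 CPM, a rise of 0.87 ± 0.132 (adjusted p = 0.0112). In these 3 genes replicate 2 was the highest library of both groups. Adamts9, a metalloprotease that cleaves the proteoglycan versican, was at 38.5, 45.5 and 45.0 CPM on 2-kPa gels and at 64.2, 70.0 and 65.2 CPM on 20-kPa gels and rose by 0.63 ± 0.0857 (adjusted p = 0.00473). Ldlrad3, a membrane protein of the LDL receptor family, was at 59.2, 66.8 and 65.5 CPM on 2-kPa gels and at 92.1, 90.6 and 92.1 CPM on 20-kPa gels and rose by 0.52 ± 0.0658 (adjusted p = 0.00294). The 20-kPa libraries of Ldlrad3 lay close together.

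The 4 genes that fell and kept their call include a cytokine receptor chain and a junction protein. Il31ra, a chain of the interleukin-31 receptor, was at 6.59, 5.47 and 5.46 CPM on 2-kPa gels and at 2.55, 2.99 and 3.01 CPM on 20-kPa gels. It fell by 1.04 ± 0.128 on the log2 scale (adjusted p = 0.00283). Heg1, a transmembrane protein that binds the CCM complex at cell junctions, was at 126, 104 and 107 CPM on 2-kPa gels and at 73.8, 71.3 and 74.6 CPM on 20-kPa gels and fell by 0.62 ± 0.0826 (adjusted p = 0.00414). In both genes the first 2-kPa replicate was the highest library. Ccdc9b, which encodes a coiled-coil protein, was at 28.1, 29.7 and 29.2 CPM on 2-kPa gels and at 18.5, 19.3 and 18.8 CPM on 20-kPa gels and fell by 0.62 ± 0.075 (adjusted p = 0.00283). Plekha4, a phosphoinositide-binding protein, was at 29.9, 32.9 and 31.7 CPM on 2-kPa gels and at 22.3, 22.3 and 22.6 CPM on 20-kPa gels and fell by 0.49 ± 0.0642 (adjusted p = 0.00343). In both the gap between the groups was larger than the range within either. In a fit of the 6 viscoelastic libraries alone, the adjusted p of these 9 genes lay between 0.0119 for Ccdc9b and 0.0173 for Lrrn3.

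**Figure D1:**
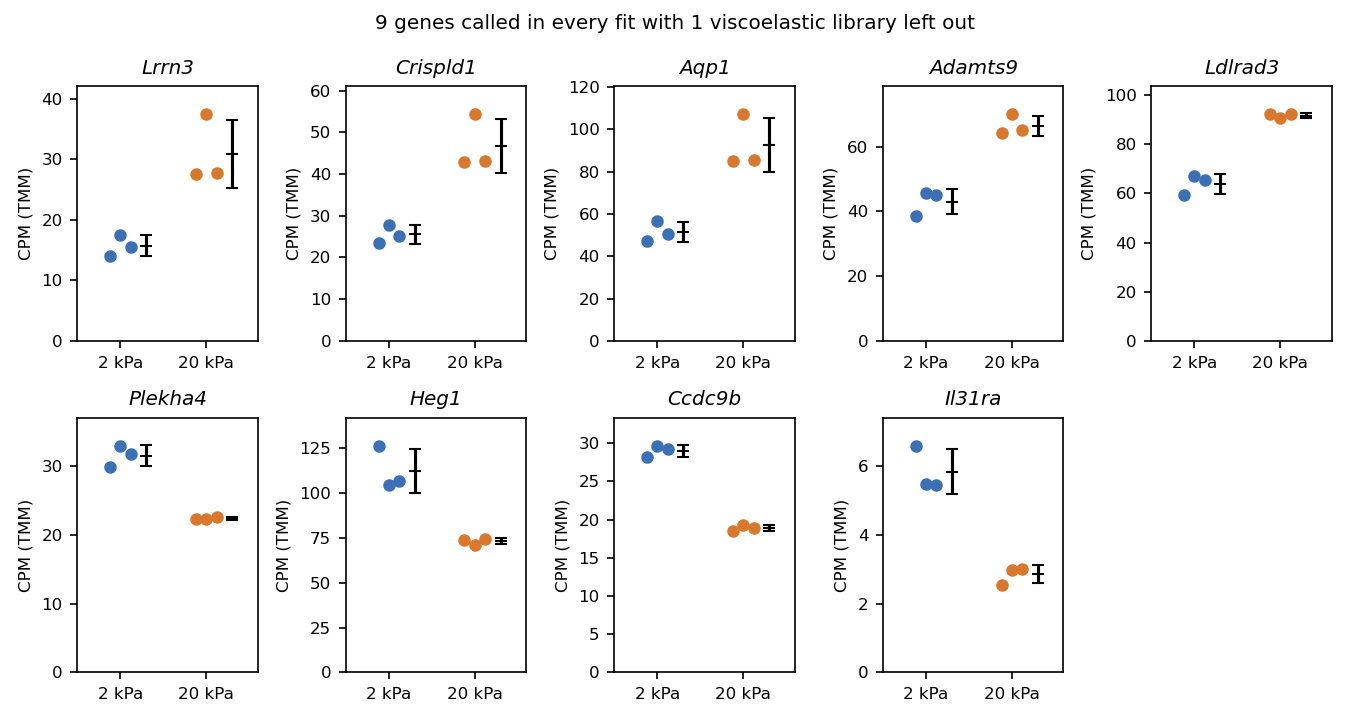
Normalized level (CPM, linear axes) of the 9 genes called in every fit with 1 viscoelastic library left out, in the 3 libraries on 2-kPa gels and the 3 on 20-kPa gels, with the mean and SD of each group. The groups do not overlap in any of the 9 genes; 5 are higher and 4 lower on 20-kPa gels.

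These genes lie on several chromosomes of mm10. Aqp1 spans chr6:55336432-55348555 on the plus strand and Adamts9 chr6:92772699-92943492 on the minus strand. Lrrn3 spans chr12:41451668-41486431 and Ldlrad3 chr2:101950203-102186385, both on the minus strand, and Crispld1 spans chr1:17727045-17766344 on the plus strand. Il31ra spans chr13:112519898-112594360 and Ccdc9b chr2:118754158-118762661, both on the minus strand. Heg1 spans chr16:33684370-33771576 and Plekha4 chr7:45526330-45554229, both on the plus strand.

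The number of calls turned on single libraries. Leaving out 20-kPa replicate 3 left 9 (5 higher, 4 lower), and leaving out 20-kPa replicate 1 left 36 (20 higher, 16 lower). The fit lacking 2-kPa replicate 1 called 127 (60 higher, 67 lower). The other 3 fits called 219 (2-kPa replicate 2 left out), 225 (2-kPa replicate 3) and 262 (20-kPa replicate 2). A fit of the 6 viscoelastic libraries alone called 38 (12 higher, 26 lower). That fit called 1017 (539 higher, 478 lower) once a term for replicate number was added, although pairing by that number was not shown. Apart from these 9, every called gene described from here on lost its call when 20-kPa replicate 3 was left out.

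**Figure D2:**
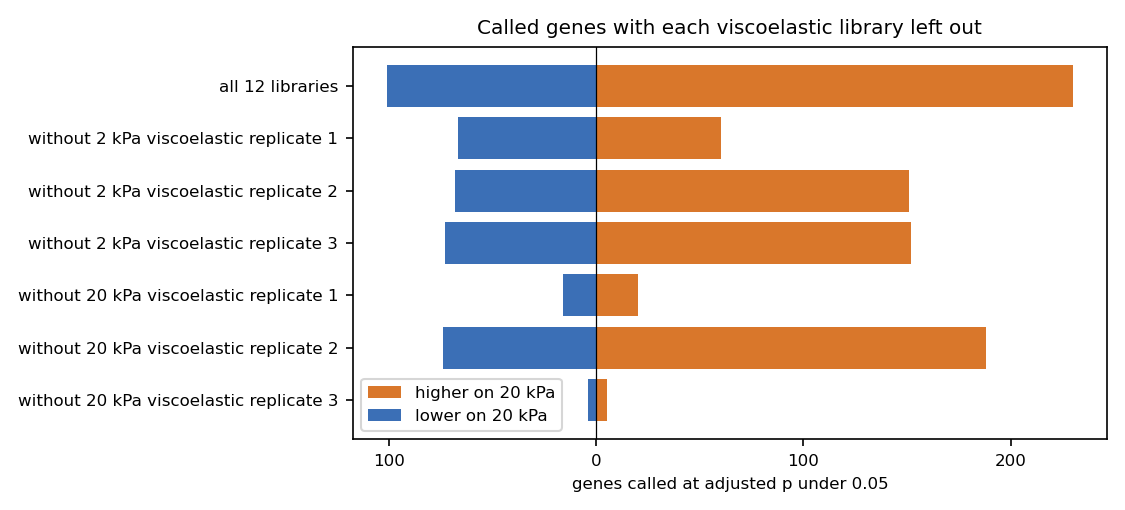
Number of genes called at an adjusted p under 0.05 (edgeR, 20-kPa against 2-kPa viscoelastic gels) with all libraries and with each viscoelastic library left out, split into genes higher and lower on 20-kPa gels. The count falls from 331 to 9 without 20-kPa replicate 3 and to 36 without 20-kPa replicate 1.

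Among the 15 genes that rose with the lowest p, the next by p was Arl4a, a small GTPase. It was at 14.6, 13.5 and 15.4 CPM on 2-kPa gels and at 19.2, 20.6 and 20.6 CPM on 20-kPa gels and rose by 0.47 ± 0.0681 (adjusted p = 0.00786). Ccbe1, a secreted protein that helps activate the lymphatic growth factor VEGF-C, rose by 0.84 ± 0.13, from 30.3, 37.1 and 34.8 CPM to 69.4, 53.7 and 59.7 CPM. S100b, a calcium-binding protein of glia and cartilage, rose by 0.57 ± 0.0931, from 49.3, 58.3 and 58.1 CPM to 88.6, 67.9 and 89.2 CPM, with the second 20-kPa library nearest to the other group. The part of other cell types in the S100b change was not tested. Id2, Lyar, Bex3, Fkbp4, Mmd, Denr and Pfdn2 rose by 0.33 to 0.39. Id2 inhibits bHLH transcription factors, Fkbp4 is a co-chaperone of HSP90, Pfdn2 a subunit of prefoldin, which helps fold actin and tubulin, and Denr acts in reinitiation of translation.

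Among the 15 genes that fell with the lowest p were enzymes and signalling proteins. Bst1, an ectoenzyme that consumes NAD, was at 7.81, 5.67 and 5.77 CPM on 2-kPa gels and at 3.39, 3.37 and 3.41 CPM on 20-kPa gels and fell by 0.92 ± 0.138 (adjusted p = 0.0112). Pgam2, the muscle form of phosphoglycerate mutase, fell by 0.65 ± 0.106, from 10.0, 9.63 and 9.93 CPM to 6.53, 5.82 and 6.47 CPM. Rapgef3, a cAMP-driven activator of Rap GTPases, fell by 0.55 ± 0.0935 and Pkn3, a protein kinase, by 0.49 ± 0.0769. Ddr1, a receptor tyrosine kinase for collagen, was at 90.0, 98.8 and 96.8 CPM on 2-kPa gels and at 79.6, 71.4 and 72.9 CPM on 20-kPa gels, a fall of 0.35 ± 0.0608. Acot11, Adamtsl4, Denn2b, Btbd19, Col4a5 and Ndrg4 fell by 0.35 to 0.43.

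Some of the largest changes were in genes of very low level. Bmp2, a ligand of bone morphogenetic protein receptors, went from 0.795, 1.44 and 0.954 CPM to 2.27, 6.45 and 1.86 CPM, a rise of 1.73 ± 0.413 (adjusted p = 0.0412). The second 20-kPa library stood far above the rest, and the call was lost in all 6 fits with a library left out. Mylk2, the skeletal muscle myosin light chain kinase, rose by 1.30 ± 0.258, from 0.584, 0.912 and 0.573 CPM to 1.80, 1.72 and 1.58 CPM. Mlc1 rose by 1.18 ± 0.224, Ldb2 by 1.10 ± 0.225 and Lypd1 by 1.10 ± 0.239. Pax8 fell by 1.25 ± 0.277, Tgfbr3l by 1.20 ± 0.286 and Adgrd1 by 1.12 ± 0.274, all below 2 CPM in every library.

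Few of the classical targets of mechanosensing were called. Of 22 YAP and TEAD targets, Fjx1 rose by 0.58 ± 0.141 and Amotl2 fell by 0.36 ± 0.0813, and the list's median was -0.03 (all tested genes: 0.01). Fjx1, a Golgi protein, went from 4.58, 7.16 and 5.63 CPM to 8.31, 8.88 and 8.78 CPM. Amotl2, an angiomotin that restrains YAP, went from 383, 415 and 342 CPM to 289, 301 and 298 CPM. In both the groups did not overlap, and each kept its call in 1 of the 6 fits with a library left out. Ccn1 was at 1102, 1451 and 1098 CPM on 2-kPa gels and at 1221, 1730.4 and 1279 CPM on 20-kPa gels (0.21 ± 0.147, adjusted p = 0.466). Ccn2 was at 3406, 4015 and 3268 CPM on 2-kPa gels and at 2827, 3360.1 and 2862 CPM on 20-kPa gels (-0.24 ± 0.119, adjusted p = 0.29). In both genes the groups overlapped, and replicate 2 was the highest library of each group. Ankrd1 ranged from 5.34 to 7.61 CPM in the 6 libraries (-0.20 ± 0.17, adjusted p = 0.562), and Yap1 from 162 to 177 CPM (-0.04 ± 0.0514, adjusted p = 0.752).

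Of 22 contractile genes edgeR called 1, and the median of the list was -0.14 with 5 members above 0. Over all tested genes, 2.28% were called and 51.9% were above 0. DESeq2 called 1 contractile gene as higher and 2 as lower, and limma voom 1 as lower. An unadjusted edgeR p under 0.05 was found for 3 that were higher and 7 that were lower. Actn1, which encodes the actin crosslinker alpha-actinin-1, fell by 0.27 ± 0.0648 (adjusted p = 0.0441), from 986, 1022 and 918 CPM to 833, 769.6 and 829 CPM. Acta2, alpha-smooth muscle actin, was at 673, 629 and 618 CPM on 2-kPa gels and at 597, 517 and 620.0 CPM on 20-kPa gels (-0.15 ± 0.0814, adjusted p = 0.35). Tagln, the actin-binding protein transgelin, ranged from 23.9 to 31.0 CPM (-0.13 ± 0.0989, adjusted p = 0.529). Acta2 and Tagln overlapped between the groups. Of 17 genes of the SRF and MRTF pathway, edgeR called none, DESeq2 2 and limma voom 2, and 3 had an unadjusted p under 0.05. Over all tested genes, 2768 of 14542 did. Acta1, skeletal alpha-actin, rose by 0.76 ± 0.184, from 4.67, 5.95 and 5.77 CPM to 10.5, 7.75 and 9.63 CPM. Skeletal muscle markers, of which Acta1 is 1, summed to 7.36 to 11.1 CPM on 2-kPa gels and 11.5 to 13.4 CPM on 20-kPa gels, and their part in the Acta1 change was not tested.

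Of 29 integrin and focal adhesion genes 1 was called. Tln2, the second talin, which links integrins to actin, was at 123, 103 and 119 CPM on 2-kPa gels and at 92.8, 87.8 and 92.7 CPM on 20-kPa gels, a fall of 0.33 ± 0.0661 (adjusted p = 0.0232). Lmna, which encodes lamins A and C, was at 469, 543 and 436 CPM on 2-kPa gels and at 489, 467 and 470.1 CPM on 20-kPa gels (-0.02 ± 0.0797, adjusted p = 0.916). Of 14 genes of the lamina and the LINC complex, edgeR called none, DESeq2 0 and limma voom 0, and 3 had an unadjusted p under 0.05. Tuba1a rose by 0.32 ± 0.0647, from 181, 196 and 197 CPM to 231, 245 and 238 CPM, and Tuba1b by 0.31 ± 0.0604, with the 6 libraries between 48.6 and 63.7 CPM and no overlap. These were the 2 calls of 13 tubulins, of which 10 were above 0 (all tested genes: 1.58% called as higher, 51.9% above 0). The alpha-tubulin genes are close copies, and reads that fit several of them make their counts uncertain.

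A few channels were called, in both directions. Of 17 mechanosensitive and water channels, Aqp1 and Kcnk2 rose and Tmem63a fell, with a list median of -0.14. Over all tested genes, 1.58% were called as higher and 0.695% as lower. Kcnk2, the stretch-gated potassium channel TREK-1, went from 40.5, 40.3 and 45.3 CPM to 52.5, 51.2 and 54.3 CPM (0.33 ± 0.0757, adjusted p = 0.0387). Tmem63a, a channel opened by membrane tension, went from 68.0, 76.7 and 70.1 CPM to 60.6, 63.6 and 55.9 CPM, a fall of 0.25 ± 0.0611 (adjusted p = 0.0427). Piezo1, a stretch-gated calcium channel, was at 206, 158 and 191 CPM on 2-kPa gels and at 179.7, 157 and 157 CPM on 20-kPa gels, and the groups overlapped (-0.17 ± 0.115, adjusted p = 0.456). Of 27 genes of calcium handling, S100a10 rose by 0.31 ± 0.0586 and Itpr2, a calcium release channel of the endoplasmic reticulum, fell by 0.35 ± 0.0841.

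A few matrix genes were called, some as higher and some as lower. Over all tested genes, 1.58% were called as higher and 0.695% as lower. Fn1, fibronectin, was at 45758, 37478 and 43963 CPM on 2-kPa gels and at 33245, 30703 and 31007 CPM on 20-kPa gels. Its groups did not overlap, but its difference missed the threshold (-0.42 ± 0.113, adjusted p = 0.0613). Fbln2, the matrix glycoprotein fibulin-2, fell by 0.37 ± 0.0756, from 2668, 2629 and 2529 CPM to 2105, 2024 and 1933 CPM (adjusted p = 0.027). It was the 1 call of 22 matricellular and adhesive glycoproteins, whose median was -0.11. Among 16 basement membrane genes, Col4a5 fell by 0.38 ± 0.0641 and Lama5 by 0.43 ± 0.0954, while Col18a1 rose by 0.54 ± 0.13. Col1a1, the main fibrillar collagen chain, was at 5686, 6794 and 6131 CPM on 2-kPa gels and at 6161, 6354 and 6177 CPM on 20-kPa gels, with overlapping groups (0.01 ± 0.0843, adjusted p = 0.979). Col14a1, a collagen that associates with fibrils, was the 1 call of 13 fibrillar and associated collagens. It rose by 0.46 ± 0.0844, from 62.3, 64.2 and 73.3 CPM to 98.5, 79.9 and 95.8 CPM.

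The small leucine-rich proteoglycans, which bind collagen fibrils, had 9 of 10 members above 0 (51.9% of all tested genes were) and a median of 0.32, but edgeR called none, DESeq2 1 and limma voom 1, and 4 had an unadjusted p under 0.05. Over all tested genes, 2768 of 14542 did. Lum, lumican, was at 618, 875 and 663 CPM on 2-kPa gels and at 853, 1154 and 896 CPM on 20-kPa gels (0.43 ± 0.136, adjusted p = 0.103). Ogn was at 904, 1106 and 969 CPM on 2-kPa gels and at 1137, 1442 and 1257 CPM on 20-kPa gels (0.36 ± 0.146, adjusted p = 0.189), and Dcn, decorin, at 303, 448 and 351 CPM on 2-kPa gels and at 395, 520.3 and 421 CPM on 20-kPa gels (0.28 ± 0.148, adjusted p = 0.329). In all 3 genes replicate 2 was the highest library of each group, and the groups of Lum and Dcn overlapped. Among 22 proteases and inhibitors, Adamts9 rose, while Timp3, a matrix-bound inhibitor of metalloproteases, fell by 0.38 ± 0.0785 and Serpine2, an inhibitor of serine proteases, by 0.33 ± 0.0787. Mfap2, a microfibril protein and the 1 call of 10 elastic fibre genes, rose by 0.58 ± 0.118, from 18.6, 26.5 and 23.0 CPM to 32.7, 38.5 and 30.3 CPM.

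Pdgfa, a platelet-derived growth factor, rose by 0.42 ± 0.0755, from 37.7, 41.4 and 36.5 CPM to 47.3, 56.2 and 50.9 CPM. In the BMP pathway, Bmp2 and Id2, a target of it, were the 2 calls of 23, against 1.58% of all tested genes called as higher. Id2 rose by 0.35 ± 0.055, from 69.4, 69.2 and 67.4 CPM to 85.1, 84.9 and 92.7 CPM. Igfbp3, a carrier of insulin-like growth factors, was the 1 call of 16 genes of that family. It fell by 0.65 ± 0.123, from 205, 236 and 222 CPM to 141, 135 and 147 CPM (adjusted p = 0.0194). For the 20 genes of the TGF-beta pathway, edgeR called none, DESeq2 0 and limma voom 1, and 2 had an unadjusted p under 0.05.

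Of 27 interleukin receptor chains, 4 fell and none rose, against 0.695% of all tested genes that fell. Besides Il31ra, Il1rap, the accessory chain of the interleukin-1 receptor, fell by 0.44 ± 0.0797, from 217, 185 and 173 CPM to 142, 143 and 139.6 CPM. Il13ra1 fell by 0.33 ± 0.0568, from 226, 209.6 and 209.9 CPM to 169, 175 and 170.2 CPM, and Il17rc by 0.35 ± 0.0819, from 14.6, 15.3 and 15.5 CPM to 12.4, 12.5 and 10.7 CPM. The median of the family was -0.11, and 7 members were above 0. The family was gathered by symbol after called members had been seen, so its count is a description. Of 23 chemokines, cytokines and related genes, edgeR called none, DESeq2 2 and limma voom 2, and 6 had an unadjusted p under 0.05.

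Genes of zinc handling were among those that fell. Metallothioneins bind zinc and are switched on by the zinc sensor MTF-1 at metal response elements, and Slc39 carriers bring zinc into the cytosol. The promoters of Mt2 and Mt1 are shown for their matches to a loose pattern of that element. They are RefSeq sequences (GRCm38.p6) from 250 bases before to 50 after the start, at chr8:94172368-94172667 for Mt2 and chr8:94178839-94179138 for Mt1, both on the plus strand. Capitals mark matches to TGCNCNC on either strand, and 51% of 32851 promoters of that length hold at least 1. N stands for any base, so some matches may not be the element itself.
Mt2: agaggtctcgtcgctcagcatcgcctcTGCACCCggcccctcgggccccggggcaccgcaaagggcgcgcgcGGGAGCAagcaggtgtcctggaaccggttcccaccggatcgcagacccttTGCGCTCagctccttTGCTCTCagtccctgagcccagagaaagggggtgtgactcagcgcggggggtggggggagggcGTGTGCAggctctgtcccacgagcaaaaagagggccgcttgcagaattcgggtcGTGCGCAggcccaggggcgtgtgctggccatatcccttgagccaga
Mt1: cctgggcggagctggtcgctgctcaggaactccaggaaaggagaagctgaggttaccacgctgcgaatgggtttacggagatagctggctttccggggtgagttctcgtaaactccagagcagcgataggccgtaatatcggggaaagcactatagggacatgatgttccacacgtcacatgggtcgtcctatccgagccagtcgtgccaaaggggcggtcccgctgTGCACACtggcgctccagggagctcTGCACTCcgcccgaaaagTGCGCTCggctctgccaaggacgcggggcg
Mt2 had 6 matches, a number that 0.225% of promoters reach, and Mt1 had 3, which 7.1% reach. Slc39a10 and Slc39a8 had 1 each. For each gene the promoter with the most matches was taken, whereas the shares count single promoters. A match describes the sequence, not binding in these cells.

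Mt2 was at 28.0, 26.0 and 27.2 CPM on 2-kPa gels and at 21.9, 18.5 and 20.5 CPM on 20-kPa gels, a fall of 0.41 ± 0.0751 (adjusted p = 0.0185). Mt1 was at 46.7, 48.5 and 47.9 CPM on 2-kPa gels and at 41.9, 34.3 and 39.7 CPM on 20-kPa gels, without overlap, but was not called (-0.30 ± 0.101, adjusted p = 0.119). Slc39a10 fell by 0.48 ± 0.0903, from 183, 151 and 165 CPM to 126, 107 and 125 CPM. Slc39a8, which also carries manganese and cadmium, fell by 0.64 ± 0.122, from 9.74, 12.6 and 9.71 CPM to 6.25, 7.51 and 6.82 CPM. These 3 were the calls of 21 metallothioneins and zinc transporters, against 0.695% of all tested genes that fell, in a family also gathered after values were seen. No member was called as higher by edgeR, DESeq2 or limma voom, and none had an unadjusted p under 0.05 in that direction.

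In the fit of all 12 samples, the ribosomal and respiratory lists held the most calls of any list. Of all tested genes 1.58% were called as higher and 51.9% were above 0. Cytosolic ribosomal protein genes had 15 called as higher and none as lower of 76, 75 were above 0, and the median was 0.22. Rps28 went from 49.8, 49.2 and 56.7 CPM to 68.0, 63.3 and 69.6 CPM (0.37 ± 0.0733, adjusted p = 0.0239), and Rpl23a from 49.1, 43.8 and 60.3 CPM to 75.8, 63.8 and 74.7 CPM (0.48 ± 0.112, adjusted p = 0.0383). Many ribosomal protein genes have processed copies in the genome, so their counts depend on how reads that map to several places were treated. Nuclear genes of oxidative phosphorylation had 15 called as higher and none as lower of 73, with 70 above 0 and a median of 0.17. Ndufa5 of complex I rose by 0.40 ± 0.0752, from 23.5, 26.9 and 26.7 CPM to 33.2, 31.3 and 37.1 CPM, Ndufa12 by 0.39 ± 0.0708 and Uqcrb of complex III by 0.35 ± 0.066. Mitochondrial ribosomal proteins had 4 calls of 78 and spliceosome proteins 6 of 34, all higher, and both lists were gathered after values were seen. Of 31 proteasome subunits, Psma4 rose by 0.25 ± 0.0566 and Psma7 by 0.22 ± 0.0517.

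The ribosomal and respiratory lists were lower in each 2-kPa library than in each 20-kPa library. The median over the ribosomal list, set against the mean of the 6 libraries on the log2 scale, was -0.07, -0.23 and -0.02 on 2-kPa gels and 0.13, 0.03 and 0.19 on 20-kPa gels. For the respiratory list it was -0.10, -0.09 and -0.04 and 0.09, 0.03 and 0.11. The second 20-kPa library was the lowest of its group in both. No ribosomal gene was called when 2-kPa replicate 1 or 2, or 20-kPa replicate 1 or 3, was left out, and 18 and 17 were called when 2-kPa replicate 3 or 20-kPa replicate 2 was. Without 2-kPa replicate 1, 2 or 3, 2, 5 and 11 respiratory genes were called, and without 20-kPa replicate 1, 2 or 3, 1, 10 and 0. In the edgeR fit of the 6 viscoelastic samples alone, 0 ribosomal and 0 respiratory genes were called (medians 0.20 and 0.15), and 47 and 37 had an unadjusted p under 0.05. Adding a term for replicate number to that fit gave 36 ribosomal and 16 respiratory calls, at medians of 0.20 and 0.15. The same term in the fit of all 12 samples gave 6 and 8. Pairing of samples by replicate number was not shown, so which of these counts to prefer was not settled. DESeq2 on all 12 samples called 39 and 22.

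**Figure D3:**
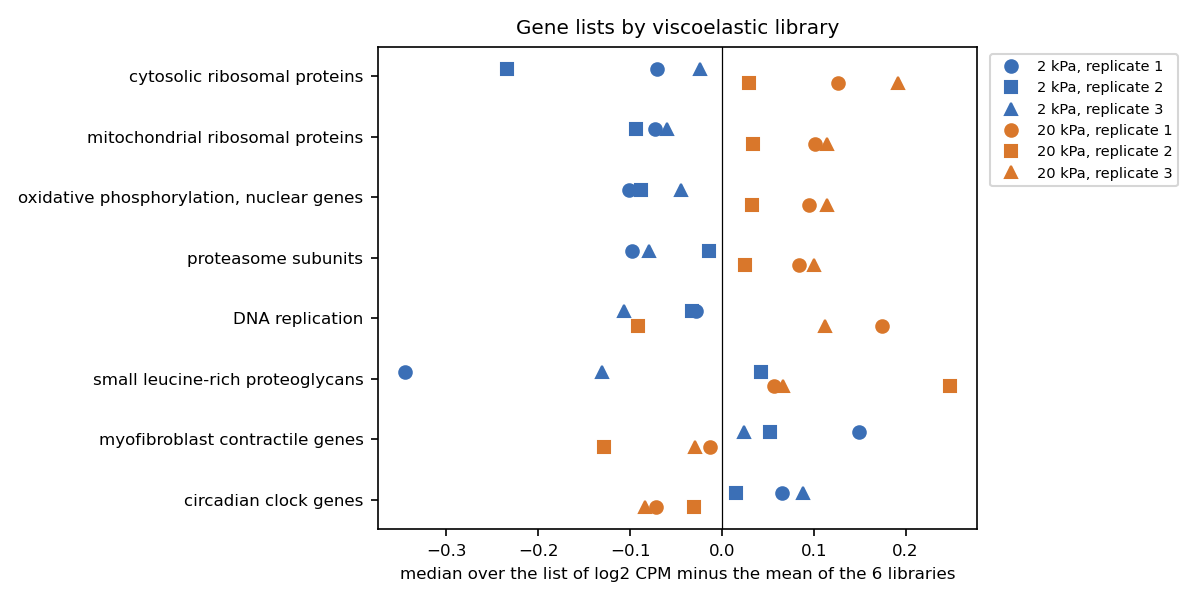
Median over the tested members of each gene list of log2 CPM minus the gene's mean over the 6 viscoelastic libraries, 1 symbol for each library. The ribosomal list lies at -0.07, -0.23 and -0.02 in the 2-kPa libraries and at 0.13, 0.03 and 0.19 in the 20-kPa libraries.

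Ribosomal protein mRNAs typically begin with a run of pyrimidines, through which the growth regulator mTOR controls their translation. The promoters of 2 called genes are shown for that start, as RefSeq sequences (GRCm38.p6) of the same span, at chr2:39005082-39005381 on the minus strand for Rpl35 and chr11:114668330-114668629 on the plus strand for Rpl38. Capitals mark the run of C and T at the start.
Rpl35: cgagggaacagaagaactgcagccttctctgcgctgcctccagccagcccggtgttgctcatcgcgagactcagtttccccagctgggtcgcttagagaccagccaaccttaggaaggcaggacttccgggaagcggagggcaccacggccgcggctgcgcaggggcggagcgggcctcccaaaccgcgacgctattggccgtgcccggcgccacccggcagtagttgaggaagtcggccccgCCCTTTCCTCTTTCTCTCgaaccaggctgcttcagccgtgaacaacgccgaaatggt
Rpl38: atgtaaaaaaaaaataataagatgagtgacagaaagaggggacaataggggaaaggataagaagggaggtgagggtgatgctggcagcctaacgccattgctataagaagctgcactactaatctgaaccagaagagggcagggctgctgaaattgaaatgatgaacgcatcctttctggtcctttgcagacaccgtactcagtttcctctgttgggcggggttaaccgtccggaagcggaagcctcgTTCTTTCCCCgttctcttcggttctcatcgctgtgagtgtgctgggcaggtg
The runs were 18 and 10 bases long. Rpl35 was at 90.9, 78.7 and 97.1 CPM on 2-kPa gels and at 117, 104 and 122 CPM on 20-kPa gels and rose by 0.37 ± 0.0823, and Rpl38 was at 51.7, 50.1 and 58.2 CPM on 2-kPa gels and at 63.2, 64.7 and 72.0 CPM on 20-kPa gels and rose by 0.32 ± 0.0708. A run of at least 8 bases within 10 bases of the start was found in 27 of the 56 ribosomal protein genes with a promoter in the table (48.2%), in 6 of the 11 called ones and in 14% of all promoters. For a gene with several promoters the longest run was taken, whereas the 14% counts single promoters. The shares are therefore not on equal terms.

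Transcript length moved with these changes. In 5 classes of exon length, the median log2 difference was 0.0879 in the shortest class (up to 2339 bases) and -0.0450 in the longest (from 7499 bases). On elastic gels the medians were 0.0143 and -0.0230. The shortest class held 100 genes called as higher and 5 called as lower, the longest 11 and 28. The median exon length was 2627 bases among genes that rose, 5673 among genes that fell and 4330 among all tested. With an offset that removed each library's trend with length, 162 genes were called, 89 higher and 73 lower (54.9% higher, against 69.5% without it). Then 1 ribosomal and 1 respiratory gene were called, and the medians of these lists were 0.15 and 0.09. All 9 genes that kept their call with a library left out were also called with the offset. The part of length in the other calls was not tested further.

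**Figure D4:**
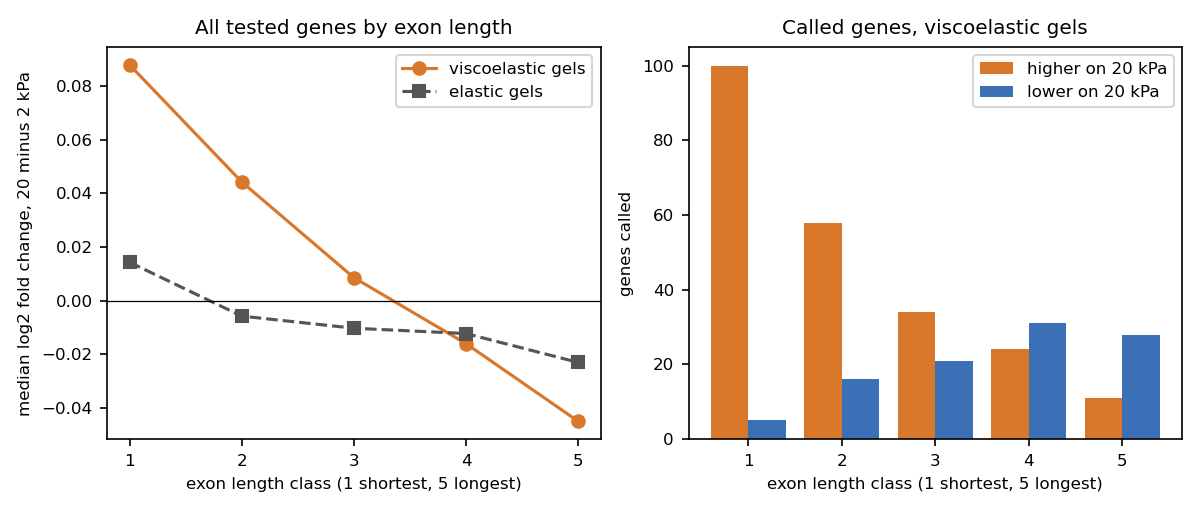
Median log2 fold change (20 kPa minus 2 kPa) of all tested genes in 5 classes of exon length on viscoelastic and elastic gels, and the number of genes called as higher or lower on 20-kPa viscoelastic gels in each class. The viscoelastic medians run from 0.0879 in the shortest class to -0.0450 in the longest.

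Cell cycle genes had few calls. Over all tested genes, 2768 of 14542 had an unadjusted p under 0.05. Of 38 DNA replication genes 34 were above 0, with a median of 0.14, but edgeR called none, DESeq2 0 and limma voom 6, and 9 had an unadjusted p under 0.05. Their medians by library were -0.03, -0.03 and -0.11 on 2-kPa gels and 0.17, -0.09 and 0.11 on 20-kPa gels, so that the second 20-kPa library lay within the 2-kPa range. Cdkn1c, an inhibitor of cyclin-dependent kinases, rose by 0.98 ± 0.169, from 18.8, 27.4 and 25.3 CPM to 40.6, 57.9 and 42.4 CPM (adjusted p = 0.0168), and was the 1 call of 20 G1 cyclins and inhibitors. Of 34 mitosis genes, edgeR called none, DESeq2 1 and limma voom 3, and 3 had an unadjusted p under 0.05. Of 46 chromatin-modifying enzymes, edgeR called none, DESeq2 5 and limma voom 4, and 7 had an unadjusted p under 0.05.

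Single calls came from other lists. Twist1, a mesenchymal transcription factor, rose by 0.28 ± 0.0649 and Hic1, a transcriptional repressor of mesenchymal cells, by 0.50 ± 0.121. Elovl6, an elongase of fatty acids, rose by 0.28 ± 0.0609, Sod1, cytosolic superoxide dismutase, by 0.26 ± 0.0571, and Hspe1, the mitochondrial co-chaperonin, by 0.36 ± 0.066. Of 30 interferon-stimulated genes, edgeR called none, DESeq2 0 and limma voom 0, and 0 had an unadjusted p under 0.05. Their median of 0.20 became -0.09 when 20-kPa replicate 2 was left out.

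Called genes differed in whether they went the same way on elastic gels. Of the 331 called genes, 159 (48%) had the opposite sign there, as did 47.4% of all tested genes. For 156 called genes the difference between the responses on the gel types (the interaction) had an adjusted p under 0.05, which 7.56% of all tested genes reached. The viscoelastic libraries that made the calls also enter the interaction. Of the 9 genes that kept their call, 8 had the opposite sign on elastic gels with an adjusted p under 0.05 there. Aqp1 had a log2 change of -0.65 on elastic gels, and its responses differed by 1.49 ± 0.129 (adjusted p = 1.56e-05). Adamts9 had -1.31 on elastic gels, a difference of 1.93 ± 0.122 (adjusted p = 1.35e-06). Il31ra had 0.93 on elastic gels, a difference of -1.97 ± 0.18 (adjusted p = 2.62e-05). Plekha4 was the exception, at -0.01 on elastic gels (adjusted p = 0.944).

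Acta2 rose on elastic gels by 0.57 (adjusted p = 0.000451), Tagln by 0.75 (adjusted p = 0.000257) and Ankrd1 by 1.30 (adjusted p = 0.000269), and in each the response differed from that on viscoelastic gels. The interaction was -0.71 ± 0.115 (adjusted p = 0.00163) for Acta2, -0.88 ± 0.14 (adjusted p = 0.00153) for Tagln and -1.50 ± 0.244 (adjusted p = 0.00169) for Ankrd1. The contractile list had a median of 0.36 on elastic and -0.14 on viscoelastic gels, with 12 of 22 members past the threshold for the interaction. Other genes went the same way on both gels. Lyar rose by 0.39 on viscoelastic and 0.39 on elastic gels, and Mt2 had -0.41 and -0.37. Cytosolic ribosomal proteins had a median of 0.14 on elastic gels, and 0 of 76 passed the threshold for the interaction. The respiratory list differed from them, with a median of 0.01 on elastic and 0.17 on viscoelastic gels. In it, 7 of 73 genes passed that threshold, against 7.56% of all tested genes.

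**Figure D5:**
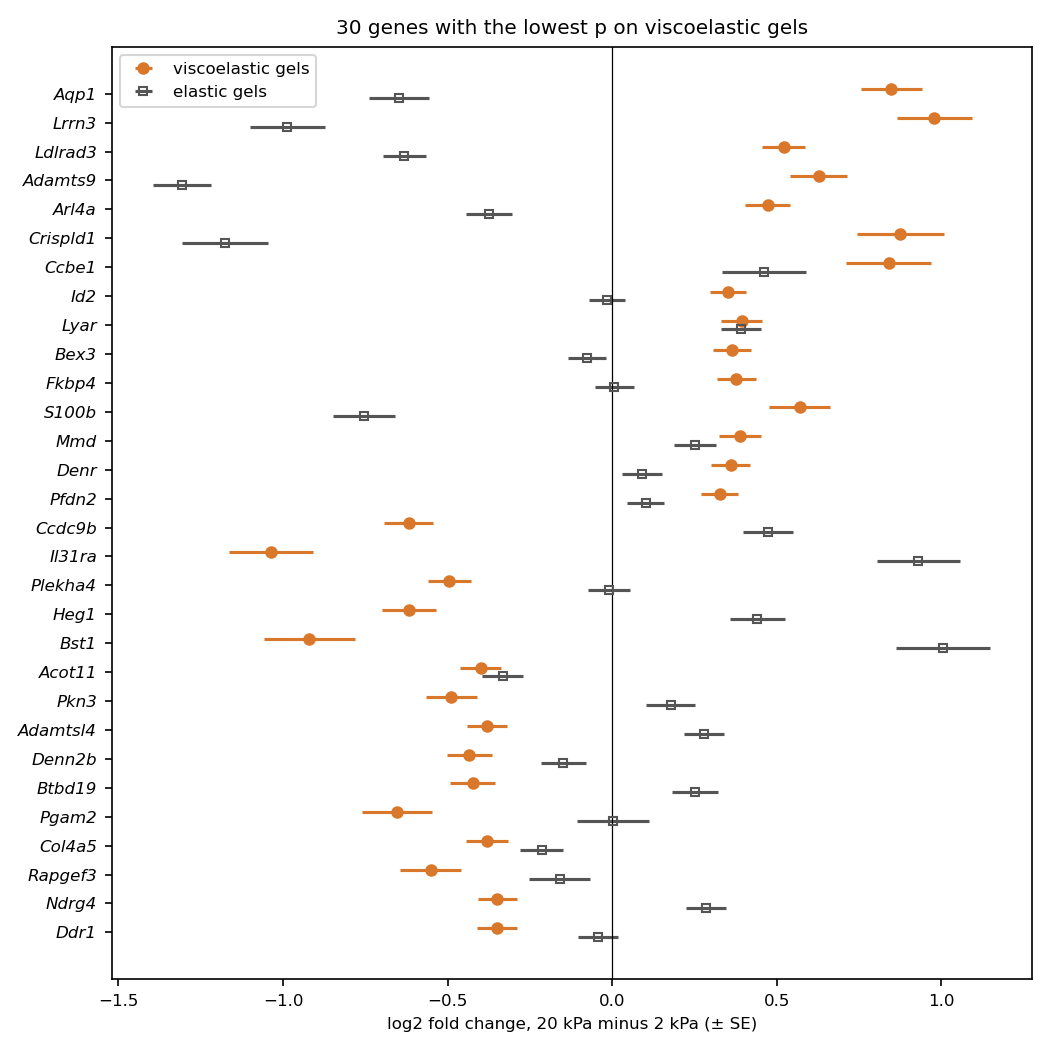
Log2 fold change between 20-kPa and 2-kPa gels with its SE for the 15 genes that rose and the 15 that fell with the lowest p on viscoelastic gels, on viscoelastic and on elastic gels. Aqp1 lies at 0.85 and -0.65 and Lyar at 0.39 and 0.39 on the 2 kinds of gel.

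Replicates of a viscoelastic group were nearly as far from each other as from the other stiffness. The SD over genes of the log2 difference between 2 libraries was 0.287 to 0.348 within the 2-kPa group, 0.253 to 0.304 within the 20-kPa group and 0.298 to 0.369 between the groups. Pairs of replicates varied by 16.7 to 55.5 times the counting noise, so no library was a copy of another. In a principal component analysis of the 500 most variable genes, the groups differed by 5.36 on PC1 (29.1% of the variance; exact permutation test, two-sided, p = 0.5). On PC1 the second replicates of both groups had the lowest scores, -12.8 and -5.70. On PC2 (26.9%) all 2-kPa libraries lay below 0 and all 20-kPa libraries above, a difference of 12.9 (exact permutation test, two-sided, p = 0.1, the smallest that 3 against 3 allows). Mitochondrially encoded genes took 2.97% and 3.34% of the counts in the second replicates, against 1.87% to 2.68% in the other 4 libraries.

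Most of the top genes kept their direction in libraries that did not choose them. When both viscoelastic libraries of a replicate number were left out, 188, 180 and 190 of the 200 genes with the lowest p in the rest (94%, 90% and 95%) had the same sign in the pair held out. Over all tested genes 64.1%, 64.5% and 65.4% did. These smaller fits called 6, 219 and 0 genes, and this check was added after the data were seen. The trend with length was shared by the libraries of a group. The shortest class had medians of -0.07, -0.02 and -0.03 on 2-kPa gels and 0.05, 0.04 and 0.05 on 20-kPa gels, against the mean of the 6 libraries. The part of that trend in the shares was not tested.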

How the data were processed

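RNA from fibroblasts on 4 kinds of gel was sequenced after poly-A selection, 3 samples each. The authors trimmed reads with Trimmomatic, aligned them to mm10 with STAR and counted them with featureCounts against GENCODE, and the deposited table holds these raw counts per gene. The annotation release, strand setting and treatment of reads that map to several places are not given in the sources used here. The study tested its counts with DESeq2. The table lists 33246 genes, and 10097 of them were at 0 throughout. The number of table columns that match no sample was 0.

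From the counts, edgeR 4.0.16 (R 4.3.3) was fitted to all 12 samples with 1 coefficient per group, TMM scaling and its quasi-likelihood test. Its filter (minimum count 10, minimum total 15, large group 10) left 14542 genes, with p-values adjusted by Benjamini-Hochberg over all of them and calls at an adjusted p under 0.05. Fold changes are 20 kPa minus 2 kPa on the log2 scale with their SE. CPM uses TMM-scaled library sizes, except that the marker sums and the limit of 1 CPM for markers use total counts. Log2 CPM uses a prior count of 2. The biological coefficient of variation was 7.5%. At 39650905 to 42789950 counts a library, the spread between replicates exceeded counting error. DESeq2 1.42.0 and limma 3.58.1 (voom) were alternatives, as were other scalings, filters, blocks, a length offset and leaving out each library. Exon lengths and positions came from GENCODE M21, to which 2252 symbols could not be matched.

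The genes and lists were chosen with earlier results of these data known, and 7 families gathered by symbol were added after values were seen. Named were the 15 genes with the lowest p in each direction, called list members, up to 3 abundant members of a list, the largest changes among genes with a mean of at least 1 CPM, and 10 reference genes (Ccn1, Ccn2, Ankrd1, Acta2, Tagln, Col1a1, Fn1, Lmna, Yap1, Piezo1). Called members of the added families, Mt1 and the proteoglycans were named after their values were seen. Some called list members are not reported here.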

Additional observations from a re-analysis of the deposited data

Results flagged for a closer look

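For 51 of the genes named above, the response to stiffness differed between viscoelastic and elastic gels (edgeR interaction, adjusted p under 0.05). Each value is a difference of log2 responses, positive where the viscoelastic response was the higher one. Of the 9 genes that kept their call with any library left out, 8 had opposite called responses on the gel types, and the differences were Aqp1 (1.49), Lrrn3 (1.97), Ldlrad3 (1.15), Adamts9 (1.93), Crispld1 (2.05), Ccdc9b (-1.09), Il31ra (-1.97) and Heg1 (-1.06). Among genes of ligands, receptors, a small GTPase and a kinase they were Arl4a (0.85), Pkn3 (-0.67), Ddr1 (-0.31), Pdgfa (0.44), Bmp2 (2.48), Il1rap (-0.67), Il17rc (-0.52), Tgfbr3l (-1.48) and Adgrd1 (-2.02). Among cytoskeletal genes, YAP targets and channels they were Ankrd1 (-1.50), Acta2 (-0.71), Tagln (-0.88), Fjx1 (1.11), Amotl2 (-0.83), Actn1 (-0.46), Tln2 (-0.54), Tuba1a (0.35), Kcnk2 (0.52) and Mylk2 (1.40). Among genes of secreted matrix proteins they were Col14a1 (1.53), Col18a1 (0.85), Lama5 (-0.65), Fbln2 (-0.67), Mfap2 (0.94), Lum (1.09) and Adamtsl4 (-0.66). Among other genes they were S100b (1.32), Bst1 (-1.93), Btbd19 (-0.68), Ndrg4 (-0.63), Slc39a8 (-0.92), Id2 (0.37), Bex3 (0.44), Fkbp4 (0.37), Plekha4 (-0.49), Pgam2 (-0.66), Cdkn1c (1.30), Ndufa12 (0.35), Elovl6 (0.58), Mlc1 (1.95), Ldb2 (1.77), Lypd1 (1.67) and Pax8 (-1.41). Most of these genes were chosen for their change on viscoelastic gels, so the size of their difference is partly set by that choice.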

How the results depend on the processing

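The number of called genes (331, 230 higher and 101 lower) depended on the setting. It was 757 (476 and 281) with DESeq2, 653 (385 and 268) with every gene that had a count, 38 (12 and 26) in the 6 viscoelastic samples alone, 1022 (690 and 332) with limma voom and sample weights, 162 (89 and 73) with the length offset and 9 (5 and 4) at an adjusted p under 0.01. The count of lists with a call (25) leaves out the families added after values were seen. It became 40 with every gene, 6 in the 6 samples alone, 39 with voom and 2 at an adjusted p under 0.01. At that stricter threshold the difference of the stiffness response between gel types had 400 calls in place of 1100. DESeq2 size factors (324) and total counts (351) stayed within 1.5 times the main count. With each viscoelastic library left out, the called genes ranged from 9 to 262 (5 to 188 higher, 4 to 74 lower), the interaction from 727 to 1182, the lists with a call from 2 to 27 and the difference in PC1, the principal component score of the viscoelastic samples, from 4.50 to 14.9. Fewer samples and fewer or more genes tested are part of several of these settings, and otherwise the cause was not tested.

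Samples that share a replicate number were not shown to be paired: their deviations from the group means correlated by 0.184, 0.308 and 0.0483, and replicate 3 correlated better with another number. With the replicate number as a block, 154 genes were called (100 higher, 54 lower), 152 of them among the 331, with 6 ribosomal and 8 respiratory genes. The block in the 6 viscoelastic samples alone gave 1017 (539 and 478) and 47 lists with a call, and the block with the length offset 80 (36 and 44) and 12 lists. The interaction had 845 calls with the block, and the PC1 difference was 15.1.

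Among the named genes, only values near 0 changed sign, none of them called. Col1a1 became -0.0003199 with DESeq2, -0.000875 with its size factors, -0.0002857 with every gene, -0.0107 in the 6 samples alone and -0.007538 with the block there, and was -0.05241, -0.001933 and -0.007651 when 2-kPa replicate 1, 2-kPa replicate 3 or 20-kPa replicate 2 was left out, the highest of these fits being 0.07607 for 2-kPa replicate 2. Lmna became 0.05946 with voom and 0.07157 when 2-kPa replicate 2 was left out (lowest -0.08899, for 2-kPa replicate 3), and Yap1 0.002822 with the length offset and 0.002883 with the block added.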

Other observations

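Circadian clock genes had a median log2 difference of -0.15 with 5 of 19 members above 0. For these genes, edgeR called none, DESeq2 0 and limma voom 2, and 9 had an unadjusted p under 0.05. Their medians by library were 0.07, 0.01 and 0.09 on 2-kPa gels and -0.07, -0.03 and -0.08 on 20-kPa gels, without overlap. Of 19 genes that crosslink or process collagen, edgeR called none, DESeq2 3 and limma voom 2, and 6 had an unadjusted p under 0.05. Over all tested genes, 2768 of 14542 did. Of 24 immediate early genes, edgeR called none, DESeq2 1 and limma voom 0, and 6 had an unadjusted p under 0.05. Of 23 WNT pathway genes, edgeR called none, DESeq2 2 and limma voom 2, and 4 had an unadjusted p under 0.05. Mitochondrially encoded genes were highest in replicate 2 of both groups, with medians by library of -0.39, 0.28 and -0.26 on 2-kPa gels and -0.21, 0.42 and 0.13 on 20-kPa gels, and for them edgeR called none, DESeq2 0 and limma voom 0, and 0 had an unadjusted p under 0.05.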
